A study of Mus musculus with 12 samples.

Results

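Nephron progenitors from 8 litters whose mothers received a ketosis regimen were compared with those from 4 litters on the control diet, as the mean of both treated arms minus normal. The comparison used all 12 libraries of the series and 17697 genes, and the genes described are the 330 whose 8 treated litters all lay on one side of all 4 normal litters. In 183 of these the treated litters were above (1.03% of the genes tested) and in 147 they were below (0.831%). No gene passed edgeR's quasi-likelihood test for the comparison after Benjamini-Hochberg adjustment (0% of genes; smallest adjusted p = 0.252), so what follows are values with their errors and not called changes. The genes were chosen by the same values that the comparison uses, and nothing is supported by their number or their size.

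The arms, normal, K and BHB, take their names from the library descriptions and hold 4 litters each. Each library is the pooled sorted cells of 1 whole litter at E17.5, so litters are the replicates. The mothers were wild-type outbred CD1 females of 8 to 10 weeks, randomised to a regimen that began at conception. All embryos of every arm came from males with the Tg(Six2-EGFP/cre)Amc transgene, in which Six2 regulatory sequence drives a fusion of green fluorescent protein and Cre, and GFP-positive cells carrying 1 copy were sorted. Every arm, normal included, therefore carries the transgene, and the population is defined by the transgene's fluorescence. The normal arm had the control diet. One treated arm had the same diet with the ketone body β-hydroxybutyrate and the other a ketogenic diet, but the labels contradict each other on which: libraries titled as ketogenic (K) are given β-hydroxybutyrate as their treatment, and libraries titled as β-hydroxybutyrate (BHB) a ketogenic diet. Either way the same 8 litters are treated, so the pooled comparison does not depend on the answer.

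During kidney development the Six2-positive cap mesenchyme either renews itself or is induced to form nephrons, and the least committed of its cells express Cited1. Ketone bodies are made from fatty acids when glucose is scarce and are oxidised in mitochondria by tissues that receive them. β-hydroxybutyrate is a fuel and has also been described as an inhibitor of histone deacetylases.

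The libraries held from 7532780 to 12276100 counts, and totals, mitochondrial share, haemoglobin share and the share of the 100 most abundant genes gave exact two-sided permutation p-values from 0.158 to 0.919 between 8 treated and 4 normal litters. The share of the nuclear RNA Malat1 was 1.61% ± 0.159 (SD, n = 4) in normal and 1.96% ± 0.281 (n = 8) in treated litters (exact permutation p = 0.0404, adjusted p = 0.202 over 5 measures). The sorted population carried its markers: 18 genes of progenitor self-renewal summed to 3425 to 3644 CPM in normal litters and to 2149 to 3611 in treated ones. Markers of other cells were present too. The mean log2 CPM over 73 markers of tubule, podocyte, ureteric, endothelial and leukocyte cells was 2.29 to 3.39 in normal litters, 3.29 to 3.75 in K 1, K 2, BHB 3 and BHB 4, and 5.34, 5.15, 4.94 and 4.30 in K 3, K 4, BHB 1 and BHB 2. Differences that moved by over 1.5 times without those last 4 libraries are given both ways below. Leukocyte markers had another order, being highest by far in BHB 4 (217 CPM summed over 13 genes, against 48.1 to 75.9 in the other treated litters and 29.3 to 44.1 in normal). No marker of any list was at 0 in all libraries.

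**Figure D1:**
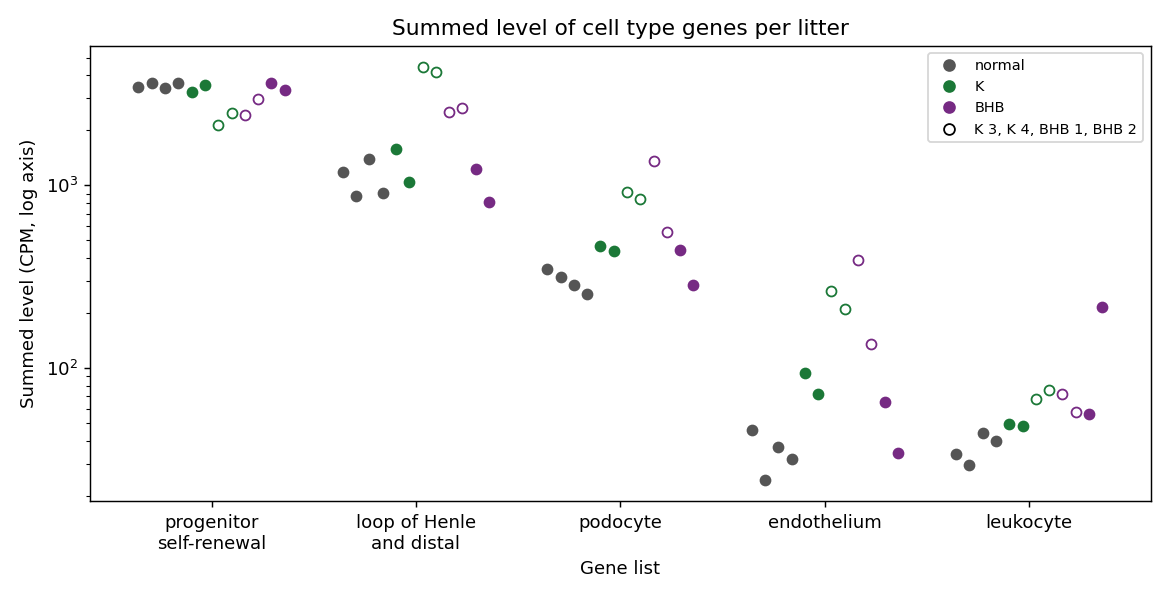
Summed level (CPM, log axis) of 5 lists of cell type genes in each of the 12 litters, by arm, with K 3, K 4, BHB 1 and BHB 2 as open circles. Progenitor self-renewal genes are lowest in K 3 (2149 CPM), BHB 1 (2438) and K 4 (2488), loop and distal tubule genes are highest in K 3 (4462), and the leukocyte list is highest in BHB 4 (217).

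The genes above and the genes below differed in level and in size of difference. Those above were scarce in normal litters (median 2.88 CPM, with 54 of 183 under 1 CPM) and had a median log2 difference of 1.15, with 102 of 183 at or beyond 1. Those below were well expressed (median 48.7 CPM, none under 1) and had a median log2 difference of -0.28, with 124 of 147 smaller than 0.5 in size. Part of this contrast in level was fixed in advance. The filter on low counts takes out genes scarce in normal litters and lower still in treated ones. Genes under 1 CPM in normal litters passed it through treated litters. Over all genes tested the median normal level was 15.0 CPM and the median log2 difference 0.01, with 9042 genes higher and 8655 lower. At an unadjusted p under 0.05 there were 3331 genes, 1944 of them higher. DESeq2's Wald test with the same contrast called 194 genes higher (1.1%) and 32 lower (0.181%), among them 81 of the 183 above and 21 of the 147 below. Without a filter on low counts edgeR called 4 genes, which were Entpd1 and Ccm2l (higher) and Igdcc3 and Dnah5 (lower).

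With those 4 libraries left out, the genes above had a median log2 difference of 0.63 (174 genes fitted) and the genes below of -0.19. In that fit 53 of the 183 and 38 of the 147 kept at least 80% of their difference, against 5332 of all 17697 genes tested. Neither set kept its difference more often than all genes did. Adding the marker score to the model as a covariate gave medians of 0.40 and -0.13, and 171 and 143 genes kept their sign. Of all 17697 genes tested 9481 did. The marker score itself differed between the groups, with K 2 (3.29) the only treated litter under a normal one (normal 3, 3.39). The covariate can therefore take up part of the treated minus normal difference of any gene. A smaller value or another sign in that fit does not show what a difference is due to. The treated litter farthest from normal was one of those 4 for 141 genes above and 130 below. The part of other cell types in these differences was not tested. Leaving out 1 litter can only free a gene from overlap, apart from changes in the filter and the scaling, and the counts above and below became 397 and 344 without normal 3, 366 and 327 without normal 4, and 291 and 278 without normal 1. They were 340 and 271 without K 2, 326 and 327 without BHB 3, and 327 and 256 without BHB 4. At the edge of the rule stood Lrrc8c, whose lowest treated and highest normal litters were both at 11.8 CPM, and Dido1, with both at 295 CPM. Slc9a3r2 (lowest treated 14.997 CPM, highest normal 15.007) stood just outside.

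**Figure D2:**
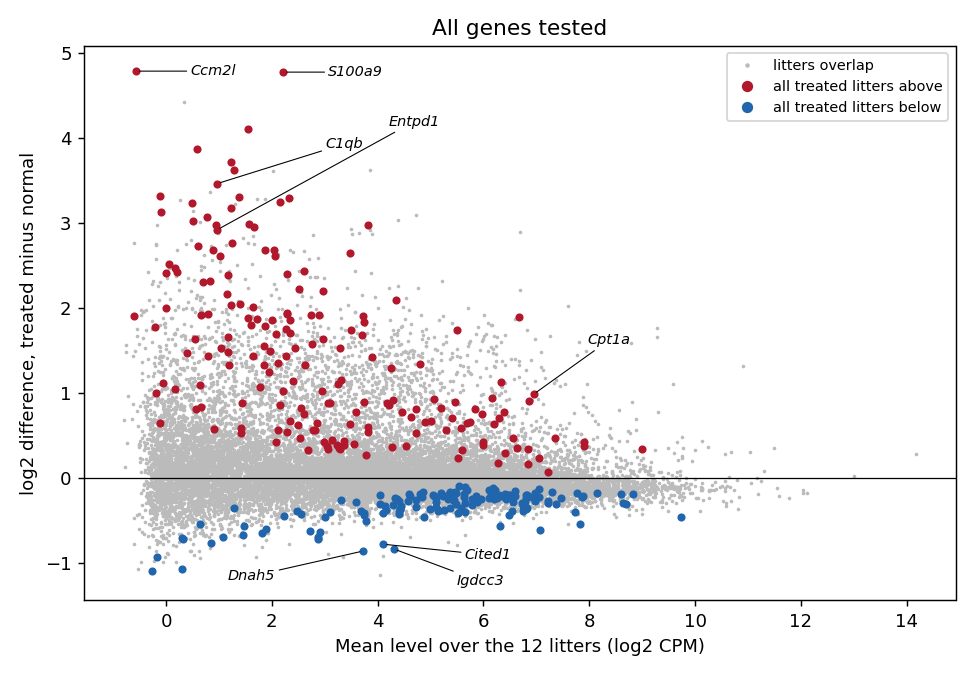
Log2 difference (treated minus normal, y axis) against the mean level over 12 litters (log2 CPM, x axis) for the 17697 genes tested, with the 183 genes above in red and the 147 below in blue. The genes above lie mostly at low levels with differences up to 4.79, while those below lie at higher levels close to 0.

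Progenitor regulators were among the genes below. Cited1 (ENSMUSG00000051159), a transcriptional coregulator that marks the least committed cap mesenchyme, was at 22.8, 24.8, 24.5 and 23.3 CPM in the 4 normal litters. Its level in the 8 treated litters ran from 9.91 to 20.6 CPM with a median of 13.7. The treated litter closest to normal was BHB 3, and the lowest were K 4 and K 3. The log2 difference was -0.78 ± 0.17 (edgeR, adjusted p = 0.252, shared by the 12 genes above and 12 below that had the smallest p among the 330), and it was -0.51 without the 4 libraries. With the covariate the difference was -0.37. In bulk libraries, fewer cells of a type and less RNA per cell cannot be told apart.

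Promoters of 4 of these 24 genes were picked by the rarest of the searched motifs that they hold, then by smallest p. Ublcp1 was picked for the same motif as Cited1 and is not printed. A Cited1 promoter is printed here. RefSeq lists 3 Cited1 promoters, and this one (GRCm38.p6, chrX:102250727-102251026, minus strand, 250 bases before to 50 after the start) has the reverse complement of AGGTCA, a site of nuclear receptors, in capitals, with its first base 217 bases before the start.
Cited1: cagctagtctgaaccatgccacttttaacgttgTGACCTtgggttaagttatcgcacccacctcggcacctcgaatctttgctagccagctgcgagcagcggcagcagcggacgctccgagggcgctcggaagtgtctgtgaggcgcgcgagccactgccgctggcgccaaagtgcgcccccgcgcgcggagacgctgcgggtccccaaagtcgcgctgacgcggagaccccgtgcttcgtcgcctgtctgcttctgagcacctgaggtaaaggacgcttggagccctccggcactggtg

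Six4 (ENSMUSG00000034460), a homeobox factor that acts with Eya proteins, was at 59.5, 58.6, 52.2 and 50.01 CPM in normal litters and ran from 34.2 to 49.2 CPM with a median of 41.8 in treated ones. BHB 3, at 49.2 CPM, came within 1 CPM of normal 4. The log2 difference was -0.42 ± 0.097 (-0.30 without the 4 libraries and -0.22 with the covariate). Eya3, a coactivator of such factors, was at 75.2 to 83.1 CPM in normal and 58.9 to 73.2 in treated litters (log2 difference -0.21 ± 0.061, -0.14 without the 4 libraries). Hoxd11 and Hoxa5, homeobox factors of positional identity, differed by -0.30 ± 0.11 and -0.36 ± 0.14 (-0.15 and -0.20 without the 4 libraries), and Hoxd11 was at 117 to 126 CPM in normal and 74.8 to 112 in treated litters. With the covariate Hoxd11 differed by -0.03. Meox2, a mesodermal homeobox factor, differed by -0.72 ± 0.22, Gli3, which transduces hedgehog signals, by -0.28 ± 0.12, and Rbpj, the DNA-binding partner of Notch, by -0.22 ± 0.071. Gli3 and Rbpj differed by -0.09 and -0.11 without the 4 libraries, and with the covariate Gli3 turned to 0.03. These 8 genes were put together after their values were seen. Their median log2 difference was -0.33, and it was -0.18 without the 4 libraries and -0.10 with the covariate.

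The whole self-renewal list gave the same direction with overlap between litters. Of 18 members 17 were tested, 16 of them lower and 1 higher, none past the test, and 2 (Cited1 and Hoxd11; 11.8% of the 17, against 1.86% of all genes above or below) had no overlap. The median log2 difference was -0.30, and -0.06 without the 4 libraries and 0.07 with the covariate, so the sign differed between fits. Six2 itself, the driver's own gene and the master regulator of self-renewal, averaged 445 ± 54.7 CPM (SD, n = 4) in the normal arm, 324 ± 104 in the K arm and 325 ± 86.7 in the BHB arm (log2 difference -0.46 ± 0.19, -0.16 without the 4 libraries and 0.07, the other sign, with the covariate). Meox1, a mesodermal homeobox factor, was at 32.9 ± 3.99, 22.3 ± 7.87 and 18.6 ± 4.84 CPM (log2 difference -0.69 ± 0.20, -0.42 without the 4 libraries and -0.25 with the covariate). The early differentiation list was split, with 10 of 19 higher. Jag1, a Notch ligand, was 0.55 higher on the log2 scale, Lhx1, a homeobox factor of the renal vesicle, 0.70, and Dll1, another Notch ligand, 0.86. Without the 4 libraries these were 0.32, 0.61 and 0.32, and with the covariate 0.16, 0.55 and 0.10. All 3 overlapped between arms.

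Igdcc3 (ENSMUSG00000032394), an immunoglobulin superfamily receptor on the list of Lin28 and let-7 targets, had the smallest p of all genes. It was at 27.4, 27.6, 27.6 and 28.3 CPM in normal litters, a range of under 1 CPM, and ran from 9.91 to 21.8 CPM with a median of 14.9 in treated ones. The 4 K litters and BHB 1 were at 9.91 to 15.8 CPM and the other BHB litters at 17.9 to 21.8. The log2 difference was -0.84 ± 0.13, -0.64 without the 4 libraries and -0.54 with the covariate, and DESeq2's adjusted p was 6.18e-05. The other 9 tested members of that list overlapped, and Lin28a and Lin28b had too few counts to be tested. Igf2bp3, an RNA-binding protein of the same pathway, was 0.23 ± 0.079 higher.

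Dnah5 (ENSMUSG00000022262), a heavy chain of the outer dynein arm of motile cilia, was at 21.04, 18.6, 19.4 and 16.5 CPM in normal litters. In treated litters it ran from 7.38 to 13.2 CPM with a median of 10.6, with BHB 2 lowest and K 3 highest, and the groups were more than 3 CPM apart. The log2 difference was -0.86 ± 0.14, and it was -0.73 without the 4 libraries and -0.74 with the covariate (DESeq2 adjusted p = 6.18e-05). Igdcc3 and Dnah5 thus kept most of their difference in both alternatives.

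**Figure D3:**
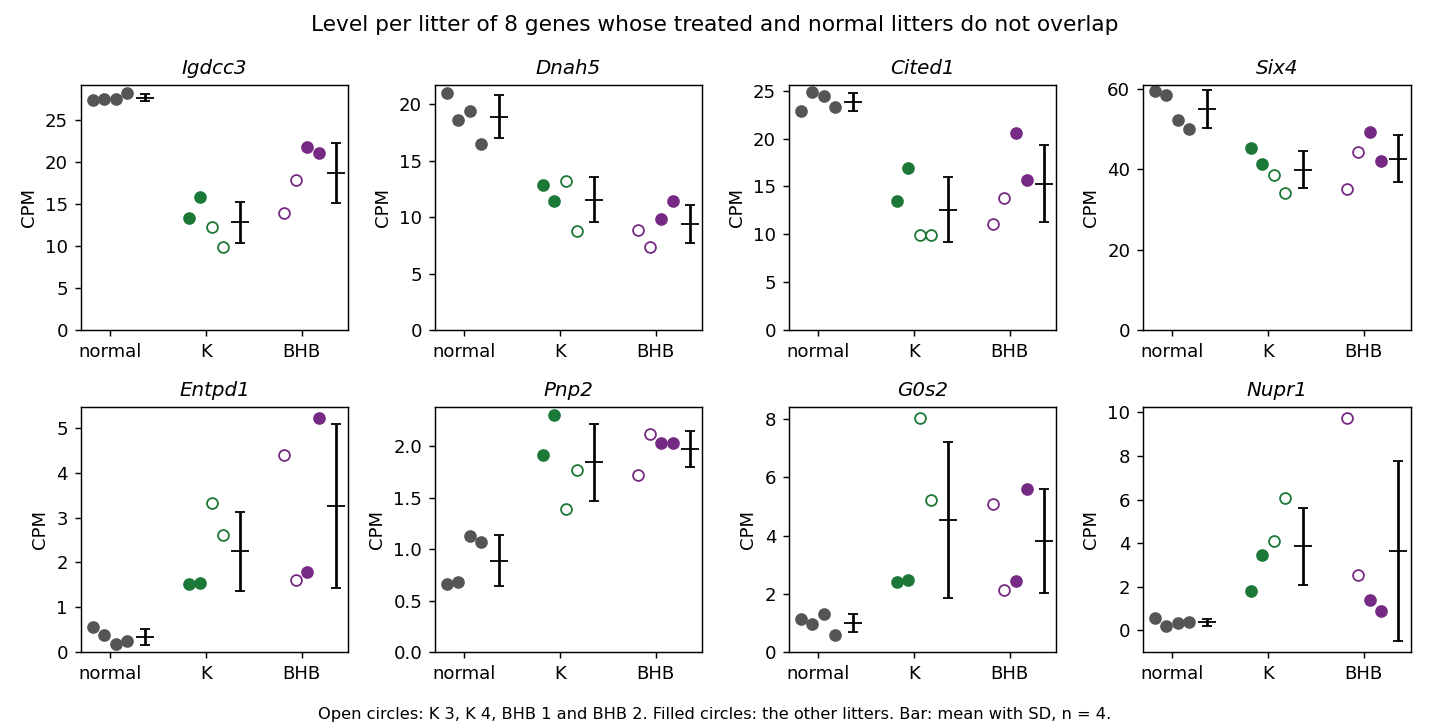
Level (CPM, y axis from 0, below 0 for Nupr1 to show its error bar) of 8 genes in each litter by arm, with the mean and SD of 4 litters as bars and K 3, K 4, BHB 1 and BHB 2 as open circles. By the rule that chose them, Igdcc3, Dnah5, Cited1 and Six4 lie below all normal litters in all 8 treated ones, and Entpd1, Pnp2, G0s2 and Nupr1 above.

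Regulators of cell death were also below normal. Aven, an inhibitor of caspase activation, was at 20.4, 22.95, 21.3 and 20.2 CPM in normal litters and ran from 14.3 to 18.1 CPM with a median of 16.1 in treated ones (log2 difference -0.38 ± 0.086). Api5, another inhibitor of apoptosis, was at 124, 133, 119 and 121 CPM and ran from 96.7 to 114 CPM with a median of 105 (log2 difference -0.24 ± 0.055). Both sets of 8 litters were narrow, and without the 4 libraries the differences were -0.35 and -0.19. With the covariate they were -0.31 and -0.14. Bcl2, the founding anti-apoptotic factor of its family, differed by -0.31 ± 0.11 (-0.14 without the 4 libraries) and came closest to normal in BHB 3 (183 CPM, against 186 in normal 1). Casp8ap2, a caspase-8 binding protein, differed by -0.39 ± 0.10 (-0.24 without the 4 libraries), and Eda2r, a death receptor that p53 induces, by -0.60 ± 0.20. These 5, grouped after their values were seen, thus hold inhibitors and promoters of cell death together. Of 18 p53 targets, 9 were higher and 9 lower, with a median of -0.04 (-0.06 without the 4 libraries and -0.10 with the covariate).

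Among the remaining genes of the 12 below, Ublcp1, a phosphatase that acts on the nuclear proteasome, was at 19.2, 20.3, 21.1 and 21.7 CPM and ran from 13.7 to 17.8 CPM with a median of 15.3 in treated litters. Its log2 difference, -0.42 ± 0.089, was -0.51 without the 4 libraries and -0.57 with the covariate. K 2 and BHB 4 were lowest and K 4 was nearest to normal. Wdr6, a WD repeat protein, was at 283, 301, 292 and 265 CPM in normal litters and from 144 to 254 CPM with a median of 203 in treated ones. Its log2 difference was -0.54 ± 0.13, -0.33 without the 4 libraries and -0.20 with the covariate. Smox, which oxidises spermine, differed by -0.46 ± 0.11 (-0.21 with the covariate). Gprin1, a G protein effector of neurite outgrowth, differed by -0.70 ± 0.16 and Ebpl, a relative of a sterol isomerase, by -0.37 ± 0.089. Prob1 differed by -0.36 ± 0.087. Of the 24 genes DESeq2 called all but Gprin1 (adjusted p = 0.106), Pnp2 (adjusted p = 0.0634) and Ccm2l, to which it gave no adjusted p.

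A pair of broader groups below normal, also put together after the values were seen, belong to nuclear housekeeping. For 15 genes of RNA processing and ribosome assembly the log2 differences ran from -0.36 to -0.17 with a median of -0.22. Mphosph10, of the small subunit processome, was at 52.03 to 62.6 CPM in normal and 36.1 to 50.8 in treated litters, and Ints8, of the Integrator complex, at 125 to 146 CPM in normal and 87.4 to 121 in treated litters (log2 differences -0.35 and -0.36, -0.27 and -0.18 without the 4 libraries). For 8 chromatin genes they ran from -0.31 to -0.19. Top2b, a DNA topoisomerase, was at 468 to 495 CPM in normal and 328 to 444 in treated litters, Mbd3, of the NuRD complex, at 163 to 184 CPM in normal and 112 to 163 in treated litters, and Prmt5, an arginine methyltransferase, at 101 to 114 CPM in normal and 75.5 to 98.3 in treated litters. Their log2 differences were -0.31, -0.29 and -0.28, and -0.16, -0.18 and -0.16 without the 4 libraries. Without the 4 libraries the group medians were -0.16 and -0.14, and with the covariate -0.10 and -0.07. Genes with a Zfp name, given to zinc finger proteins, were 8 of the 147 below (5.44%), 3 of the 183 above (1.64%) and 371 of the 17697 tested.

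Single genes below normal with larger differences were Rdh10, which makes the retinoic acid precursor retinal (168 to 184 CPM in normal and 79.2 to 139 in treated litters, log2 difference -0.61 ± 0.15), and Ism1, a secreted protein (-0.57). Rdh10 and Ism1 differed by -0.39 and -0.25 without the 4 libraries, and with the covariate by -0.22 and 0.02, the other sign for Ism1. Spock2, a matrix proteoglycan, was the most abundant of the 147, at 1022 to 1089 CPM in normal and 426 to 993 in treated litters, with a log2 difference of -0.47 ± 0.19 that was -0.19 without the 4 libraries. Grb2, the adaptor between receptor tyrosine kinases and Ras, differed by -0.25 ± 0.061 and Tfam, the packaging factor of mitochondrial DNA, by -0.18 ± 0.060. For Grb2 and Tfam the values without the 4 libraries were -0.26 and -0.15.

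Above normal, Entpd1 (ENSMUSG00000048120), the ectonucleotidase CD39 that hydrolyses extracellular ATP, had the smallest p. It was at 0.566, 0.392, 0.173 and 0.239 CPM in normal litters and ran from 1.51 to 5.21 CPM with a median of 2.20 in treated ones. No treated litter was under 1 CPM and no normal litter over it, and BHB 4 and BHB 1 were highest. The log2 difference was 2.92 ± 0.49, 2.68 without the 4 libraries and 2.48 with the covariate (DESeq2 adjusted p = 5.68e-04). Endothelial cells and leukocytes also express Entpd1, and the endothelial marker sum was 24.2 to 46.0 CPM in normal and 34.1 to 391 in treated litters, with BHB 4 the one within the normal range. The part of either cell type in the Entpd1 values was not tested.

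Nupr1 (ENSMUSG00000030717), a nuclear protein induced by stress and a target of ATF4, was at 0.566, 0.196, 0.347 and 0.358 CPM in normal litters and ran from 0.890 to 9.74 CPM with a median of 2.99 in treated ones. BHB 1 was highest and BHB 4, at 0.890 CPM, nearest to normal. The log2 difference was 3.31 ± 0.74, 2.22 without the 4 libraries and 1.94 with the covariate. Slc3a2, the heavy chain of amino acid transporters and another ATF4 target, was at 72.6 to 82.7 CPM in normal and 85.6 to 152 in treated litters (log2 difference 0.47 ± 0.14, 0.24 without the 4 libraries and 0.07 with the covariate). The ATF4 list as a whole was split, with 11 of 17 tested members higher, none past the test, and a median of 0.06. That median was 0.02 without the 4 libraries and -0.01 with the covariate. Dusp1, an immediate-early phosphatase of MAP kinases that glucocorticoids and tissue dissociation also induce, was at 66.1 to 81.1 CPM in normal and 88.7 to 214 in treated litters (log2 difference 0.91 ± 0.21, 0.58 without the 4 libraries and 0.45 with the covariate).

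Promoters of Nupr1 and Ildr2 are printed because of those 24 genes they are the ones that hold CACGTG, the E box, shown in capitals. Both are RefSeq promoters of GRCm38.p6, 250 bases before to 50 after the start. Nupr1 lies at chr7:126625421-126625720 on the minus strand with the first base of the motif 225 bases before the start, and Ildr2 at chr1:166253889-166254188 on the plus strand with it 82 bases before.
Nupr1: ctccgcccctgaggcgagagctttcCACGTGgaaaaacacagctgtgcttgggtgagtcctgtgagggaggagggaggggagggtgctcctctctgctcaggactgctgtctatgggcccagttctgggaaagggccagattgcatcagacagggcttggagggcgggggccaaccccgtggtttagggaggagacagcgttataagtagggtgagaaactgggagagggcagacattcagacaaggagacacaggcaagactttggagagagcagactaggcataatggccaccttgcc
Ildr2: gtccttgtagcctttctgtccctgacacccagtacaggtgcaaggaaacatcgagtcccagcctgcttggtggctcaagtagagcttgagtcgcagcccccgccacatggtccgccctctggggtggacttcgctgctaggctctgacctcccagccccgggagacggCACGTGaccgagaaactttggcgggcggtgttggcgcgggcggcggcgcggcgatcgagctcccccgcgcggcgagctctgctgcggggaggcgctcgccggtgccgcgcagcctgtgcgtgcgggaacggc

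Ildr2 (ENSMUSG00000040612), an immunoglobulin-like receptor of tricellular junctions, was at 4.43, 3.43, 5.12 and 4.30 CPM and ran from 6.52 to 21.5 CPM with a median of 12.1 in treated litters, with K 2 and K 1 nearest to normal and BHB 1 highest. Its log2 difference was 1.53 ± 0.32, 1.03 without the 4 libraries and 0.64 with the covariate. G0s2 (ENSMUSG00000009633), an inhibitor of adipose triglyceride lipase, was at 1.13, 0.981, 1.30 and 0.597 CPM in normal litters and ran from 2.12 to 8.05 CPM with a median of 3.79 in treated ones. BHB 2 was lowest and K 3 highest. The log2 difference of G0s2 was 2.01 ± 0.44, 1.59 without the 4 libraries and 1.23 with the covariate.

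With G0s2, 6 more genes of lipid use and storage were above normal, grouped after their values were seen. Cpt1a, the carnitine palmitoyltransferase that admits fatty acids to mitochondria, was at 78.03, 64.6, 81.4 and 66.6 CPM in normal litters and ran from 84.01 to 289.9 CPM with a median of 125 in treated ones. K 3 and K 4 were at 289.9 and 228 CPM while BHB 4 and BHB 3, at 84.01 and 85.9, were just over normal 3. The log2 difference was 0.99 ± 0.28, 0.44 without the 4 libraries and 0.12 with the covariate. Acadvl, the very long chain acyl-CoA dehydrogenase, differed by 0.94 ± 0.33 (0.31 without the 4 libraries and -0.09, the other sign, with the covariate) and Pparg, an adipogenic nuclear receptor, by 2.41 ± 0.57. Mgll, which hydrolyses monoacylglycerol, differed by 1.75 ± 0.51 (0.65 without the 4 libraries), and Apoe, a lipoprotein component that macrophages also make, by 1.89 ± 0.51. Cyp4a10, a fatty acid hydroxylase and PPAR target with close paralogues that could share reads, was at 0.189 to 1.04 CPM in normal and 1.11 to 16.3 in treated litters, with K 3 and K 4 at 14.5 and 16.3 CPM and no other litter over 2.60 (log2 difference 2.69 ± 0.81, 1.65 without the 4 libraries). The 7 genes had a median log2 difference of 1.89, and 1.47 without the 4 libraries. With the covariate the median was 0.84, as was the difference of Cyp4a10.

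The list of fatty acid oxidation and PPAR targets was wholly on one side: 27 of 27 tested members of 31 were higher, none past the test, with a median of 0.44 on the log2 scale against 0.01 over all genes. Only Cpt1a, Acadvl and Cyp4a10 (11.1% of the 27, against 1.86% of all genes above or below) had no overlap. Of these Cyp4a10, at a mean of 0.620 CPM in normal litters, passed the filter on low counts through treated litters. Without the 4 libraries 25 of 27 were higher with a median of 0.11, and with the covariate 9 of 27 were higher with a median of -0.10. Pdk4, the kinase that shuts off pyruvate dehydrogenase in fasting, averaged 17.3 ± 3.28 CPM in the normal arm, 80.9 ± 43.2 in the K arm and 59.00 ± 56.5 in the BHB arm. The log2 difference of Pdk4 was 2.00 ± 0.58, 0.81 without the 4 libraries and 0.35 with the covariate. Proximal tubule, which oxidises fatty acids, had marker sums of 166 to 1448 CPM in normal and 413 to 3512 in treated litters, highest in K 4 and K 3. Its part in these values was not tested.

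Some genes above normal held their difference without the 4 libraries, which was no more frequent than among all genes tested. Pnp2 (ENSMUSG00000068417), a purine nucleoside phosphorylase with a close paralogue that could share reads, was at 0.660, 0.687, 1.13 and 1.07 CPM in normal litters and ran from 1.39 to 2.30 CPM with a median of 1.97 in treated ones, a narrow range in which K 3 was lowest. Its log2 difference was 1.10 ± 0.23, 1.22 without the 4 libraries and 1.27 with the covariate, and DESeq2 did not call it. Pmp22 (ENSMUSG00000018217), a tetraspan membrane protein of myelin and other tissues, was at 4.06, 3.43, 4.16 and 4.77 CPM and ran from 5.04 to 11.7 CPM with a median of 6.51. K 1 was nearest to normal and BHB 4 highest, and the log2 difference was 0.75 ± 0.17, 0.80 without the 4 libraries and 0.66 without BHB 4.

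Abca9, a lipid transporter of the ABC family, was at 0.472, 0, 0.347 and 0.358 CPM in normal litters and ran from 1.07 to 5.85 CPM with a median of 1.47 in treated ones, with BHB 4 apart from the rest (log2 difference 2.73 ± 0.62, 2.38 without BHB 4). Dpysl5, a collapsin response mediator of neurons, was at 3.02, 2.45, 2.43 and 3.10 CPM and ran from 3.58 to 7.33 CPM with a median of 5.52 (log2 difference 1.02 ± 0.21). Kcnn2, a calcium-activated potassium channel, was at 0.943, 0.687, 0.954 and 0.597 CPM and ran from 1.25 to 3.43 CPM with a median of 2.17 (log2 difference 1.43 ± 0.32). The differences of Dpysl5 and Kcnn2 without the 4 libraries were 0.78 and 0.96, and with the covariate 0.68 and 0.64.

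**Figure D4:**
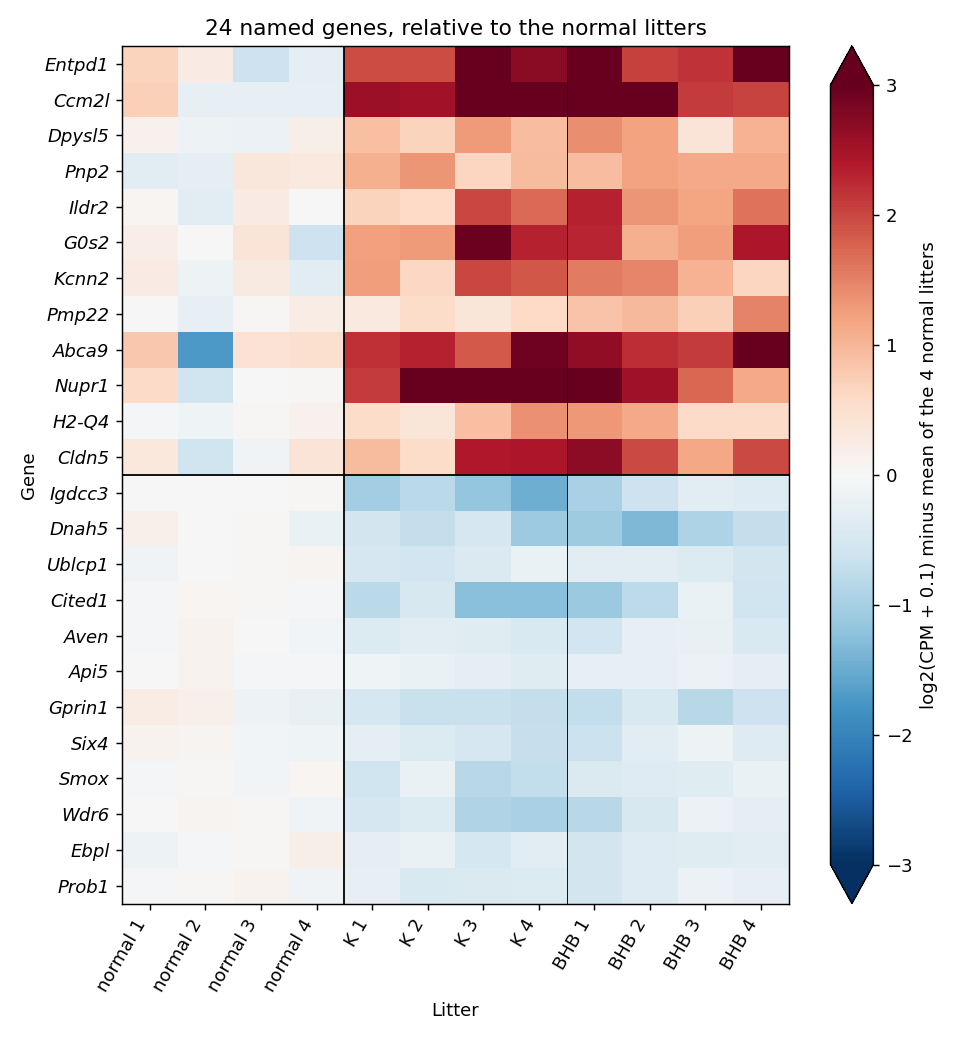
Level of the 24 genes of smallest p among the 330, relative to the mean of the 4 normal litters (log2 of CPM + 0.1, colour), genes in rows with the 12 above on top, litters in columns. By the choice of genes, all 8 treated columns are red for the genes above and blue for those below. Colours are stronger in K 3, K 4 and BHB 1 for Nupr1, Cldn5 and Cited1, and more even for Pnp2, Ublcp1 and Aven. Colours are capped at 3 in either direction.

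Leukocyte genes were the largest group above normal. Of 23 such genes, grouped after their values were seen, the log2 differences ran from 1.80 to 4.78 with a median of 2.95, from mean levels of 0.122 to 2.16 CPM in normal litters. C1qb, a complement chain of macrophages, was at 0.0943, 0.0981, 0.434 and 0.239 CPM in normal and ran from 0.862 to 11.9 CPM with a median of 1.41 in treated litters (11.9 CPM in BHB 4 and 2.30 in K 4, the next). Lyz2, the lysozyme of macrophages and granulocytes, was at 0.377, 0.294, 0.607 and 0.835 CPM and ran from 1.05 to 29.5 CPM with a median of 3.70. BHB 4 was the highest litter for 21 of the 23 genes. S100a9, an alarmin of neutrophils, differed by 4.78 ± 1.38, Il1b, an inflammatory cytokine, by 4.11 ± 1.17, and Cybb, of the phagocyte oxidase, by 3.03 ± 0.75.

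Without the 4 libraries with the highest marker scores the median of this group was 2.86 (21 genes fitted, 20 with at least 80% of their difference), and 3.01 with the covariate. Without BHB 4, which stays in those fits, it was 2.09. For single genes the difference without BHB 4 was 2.64 for C1qb, 2.57 for Lyz2, 3.98 for S100a9 and 3.14 for Il1b. Of the 13 leukocyte markers on the list, 10 were tested and all 10 were higher, none past the test, and 4 (C1qa, C1qb, Laptm5 and S100a9; 40.0% against 1.86% of all genes above or below) had no overlap. The list's median was 2.02, 2.12 without the 4 libraries and 1.35 without BHB 4. Genes as scarce in normal litters as C1qb passed the filter on low counts through treated litters, and Tyrobp, Fcer1g and S100a8 were not tested. The count higher, the share without overlap and the median were therefore partly fixed in advance. Leukocytes lie outside the nephron progenitor lineage, and their part in these values was not tested.

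Endothelial genes were the next group. Ccm2l (ENSMUSG00000027474), a relative of a cerebral cavernous malformation protein and expressed in endothelium, had 1 count in all normal litters together and 82 counts in the treated ones. It was at 0.0943 CPM in normal 1 and 0 in the other normal litters, and ran from 0.381 to 1.98 CPM with a median of 0.909 in treated ones. The ratio of pooled counts per scaled library size was 41.2 (95% exact interval 7.20 to 1649, counting error only, without the spread between litters). The log2 difference was 4.79 ± 0.91, and 3.39 with the covariate. K 3, K 4, BHB 1 and BHB 2 were at 1.29, 1.57, 1.98 and 1.21 CPM and the other treated litters at 0.381 to 0.604. Without those 4 libraries Ccm2l had too few counts to be fitted. Cldn5 (ENSMUSG00000041378), the tight junction claudin of endothelium, was at 2.83, 1.47, 2.08 and 2.98 CPM in normal litters and ran from 3.35 to 15.1 CPM with a median of 9.17 in treated ones, with BHB 1, K 4 and K 3 highest. Its log2 difference was 1.92 ± 0.44, 1.17 without the 4 libraries and 0.71 with the covariate.

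The 14 endothelial genes, also grouped after their values were seen, had a median log2 difference of 1.93, and 1.05 without the 4 libraries (12 fitted). With the covariate the median was 0.69. Cd93, a receptor of endothelial and myeloid cells, was at 1.18 to 3.87 CPM in normal and 4.64 to 51.02 in treated litters and S1pr1, the sphingosine 1-phosphate receptor, at 1.56 to 2.63 CPM in normal and 3.25 to 13.96 in treated litters. Their log2 differences were 2.98 and 1.43, and 1.46 and 0.66 without the 4 libraries. Stab1, a scavenger receptor of sinusoidal endothelium and of macrophages, followed the leukocyte genes in being highest in BHB 4 (96.6 CPM, against 29.4 in BHB 1). On the endothelial marker list 13 of 13 genes were higher, none past the test, with a median of 2.32, 1.08 without the 4 libraries and 0.62 with the covariate. This list is part of the marker score, so the smaller medians in the last 2 fits are partly built in. Esam, an endothelial adhesion molecule, and Cldn5 were without overlap (15.4% of the 13, against 1.86% of all genes above or below).

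Immune response genes of broader expression were also above normal. H2-Q4, an MHC class I gene, was at 8.11, 7.75, 8.67 and 9.31 CPM and ran from 10.8 to 21.9 CPM with a median of 14.2 in treated litters. Its log2 difference was 0.90 ± 0.21, 0.52 without the 4 libraries and 0.34 with the covariate. H2-D1, a classical MHC class I gene, differed by 1.34 ± 0.36 and Irf7, the interferon-induced regulator of type I interferon, by 2.04 ± 0.69 (0.85 and 1.07 without the 4 libraries). Reads of H2-Q4, H2-D1 and H2-T24 could be shared among class I paralogues, and those of Mndal and Ifi207 within their family. The 9 genes of this group had a median of 1.92, 1.01 without the 4 libraries (7 fitted) and 0.52 with the covariate. Of 15 genes on the interferon list 10 were tested, all 10 were higher, none past the test, and the median was 0.97 (0.31 without the 4 libraries). With the covariate the median was 0.22, with 6 of 10 higher. Irf7, Ifih1 and Oasl2 were under 1 CPM in every normal litter and passed the filter through treated litters. The count higher was therefore partly fixed in advance.

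Lysosome genes above normal had mean levels of 9.65 to 199 CPM in normal litters. Their log2 differences, 0.34 to 0.56, were smaller than any in the leukocyte, endothelial and interferon groups. Basement membrane genes were more varied, with mean levels of 0.536 to 434 CPM and log2 differences of 0.34 to 2.40. Psap, the saposin precursor, was at 188 to 211 CPM in normal and 213 to 339 in treated litters, Ctsl, a lysosomal protease, at 113 to 146 CPM in normal and 146 to 235 in treated litters, and Atp6v0c, of the proton pump, at 93.03 to 107 CPM in normal and 108 to 157 in treated litters. Their log2 differences were 0.37 ± 0.13, 0.47 ± 0.15 and 0.34 ± 0.085, and 0.16, 0.25 and 0.23 without the 4 libraries. Lama3 and Lamb3, chains of epithelial laminin, differed by 2.40 ± 0.56 and 1.91 ± 0.55, Nid1, which links laminin to collagen, by 0.66 ± 0.22, and Agrn, a basement membrane proteoglycan, by 0.34 ± 0.11. These were 1.47, 1.00, 0.36 and 0.15 without the 4 libraries. Without the 4 libraries the median of the 5 lysosome genes went from 0.40 to 0.24 and that of the 5 basement membrane genes from 0.88 to 0.36. With the covariate these medians were 0.08 and 0.11.

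Other genes above normal came from several roles. Igf1, the growth factor, was at 0.955 to 1.91 CPM in normal and 2.11 to 8.37 in treated litters (log2 difference 1.79, 1.16 without the 4 libraries). Peg10, an imprinted gene of retrotransposon origin, was at 4.77 to 5.85 CPM in normal and 6.99 to 21.98 in treated litters (log2 difference 1.15 ± 0.32, 0.61 without the 4 libraries), and 9 of 17 imprinted growth genes were higher. With the covariate Peg10 differed by 0.37. Hif3a, a hypoxia-inducible factor subunit, was at 36.2 to 52.3 CPM in normal and 55.96 to 200.2 in treated litters and Sat1, which acetylates polyamines, at 15.99 to 23.7 CPM in normal and 24.6 to 65.02 in treated litters. Hif3a and Sat1 differed by 1.13 and 0.93, by 0.41 and 0.37 without the 4 libraries, and by -0.03 and -0.03, the other sign, with the covariate. Of the 330 genes, 231 were put in no group.

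Lists of energy metabolism, proliferation and signalling gave their medians without any member past the test. All 28 nuclear respiratory chain genes were higher (median 0.26), but without the 4 libraries 12 were higher (median -0.01) and with the covariate 2 (-0.20). Of 26 genes of pyruvate dehydrogenase and the tricarboxylic acid cycle 24 were higher (median 0.25, -0.01 without the 4 libraries and -0.20 with the covariate). All 25 DNA replication genes were lower (median -0.17), and 17 of 25 were without the 4 libraries (median -0.03), with 21 of 25 higher under the covariate. In none of these 3 lists did a gene lack overlap.

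Glycolysis kept its direction in all 3 fits: 17 of 17 genes were higher with a median of 0.26, 15 without the 4 libraries (0.15) and 12 with the covariate (0.08). Slc2a1, the glucose transporter GLUT1, averaged 95.3 ± 6.78 CPM in the normal arm, 165 ± 34.97 in the K arm and 148 ± 58.98 in the BHB arm. Its log2 difference was 0.71, 0.29 without the 4 libraries and 0.16 with the covariate. Hypoxia targets were higher in 15 of 17 (median 0.39) and glucocorticoid receptor targets in 13 of 14 (0.88), with medians of 0.09 and 0.10 without the 4 libraries and 0.12 and -0.17 with the covariate. Fatty acid synthesis was lower in 11 of 14 (median -0.13, -0.11 without the 4 libraries and -0.05 with the covariate). FGF signalling was lower in 13 of 17 (median -0.14, -0.06 without the 4 libraries and 0.01 with the covariate). Histone deacetylases and sirtuins were higher in 13 of 18 (median 0.08, 0.01 without the 4 libraries and -0.004 with the covariate). Ketone body genes were higher in 9 of 11 (median 0.36), in 7 of 11 without the 4 libraries (0.09) and in 5 of 11 with the covariate (-0.06).

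**Figure D5:**
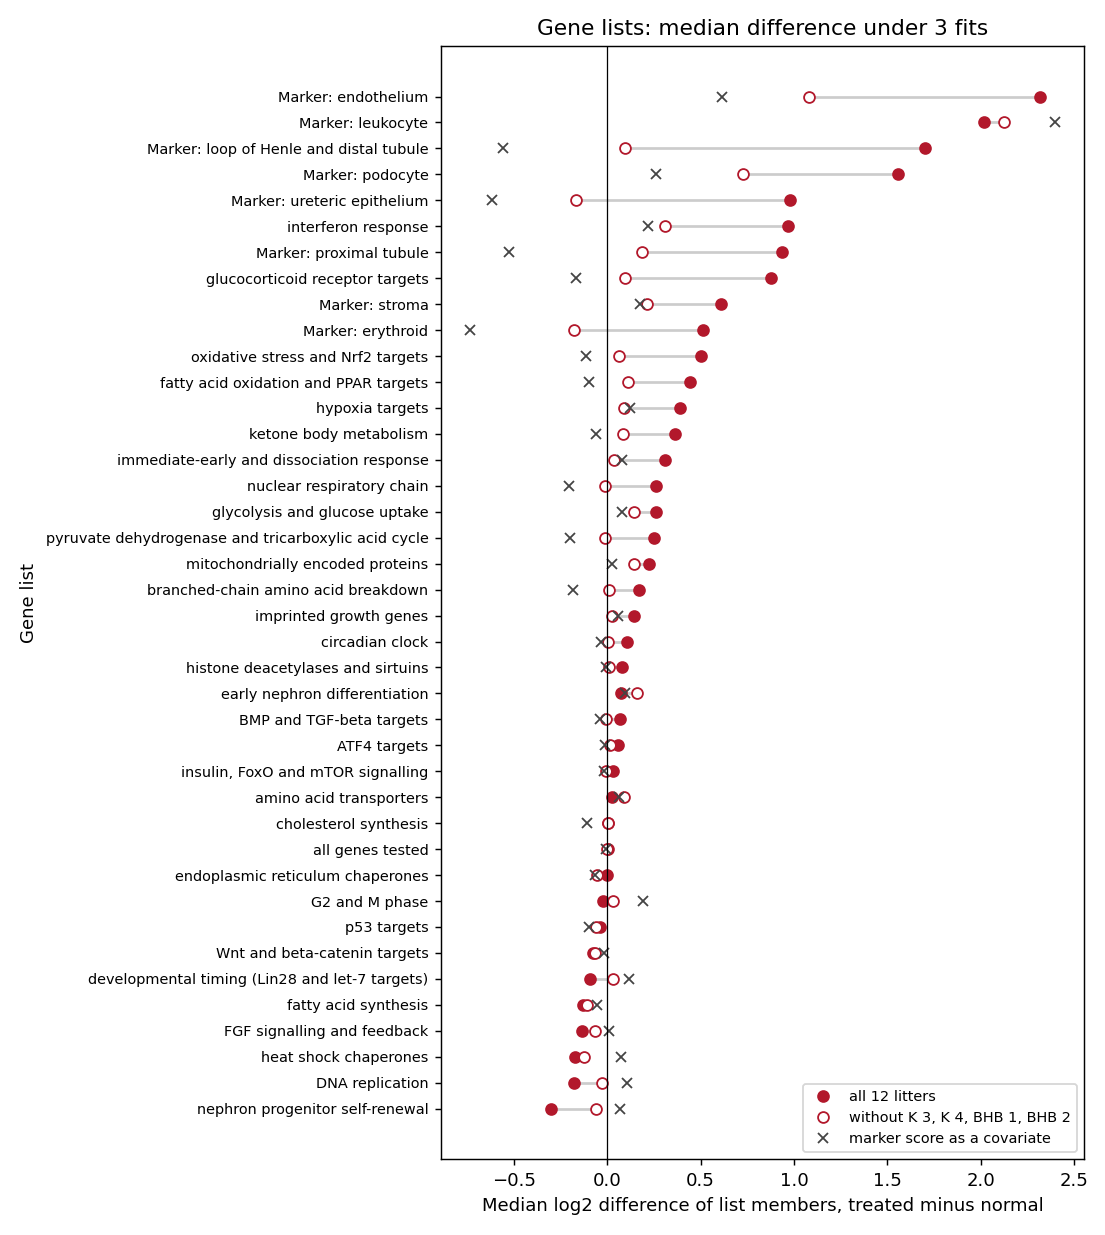
Median log2 difference (treated minus normal, x axis) of each of 39 gene lists and of all genes, for all 12 litters (filled), without K 3, K 4, BHB 1 and BHB 2 (open) and with the marker score as a covariate (crosses). Marker lists lead (endothelium 2.32, leukocyte 2.02), and for most lists the open circle is nearer to 0, while the leukocyte list stays at 2.12.

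For the lists not described above, 3 medians are given, over all litters, without the 4 libraries and with the covariate. They were 0.50, 0.06 and -0.11 for Nrf2 targets (13 of 16 higher over all litters), 0.31, 0.04 and 0.08 for immediate-early genes (20 of 24) and 0.17, 0.01 and -0.18 for branched-chain amino acid breakdown (16 of 18). Mitochondrially encoded proteins had 0.23, 0.14 and 0.03 (12 of 13), imprinted genes 0.15, 0.02 and 0.06, the circadian clock 0.11, 0.00 and -0.03, and BMP and TGF-beta targets 0.07, 0.00 and -0.04. Heat shock chaperones had -0.17, -0.12 and 0.07 (5 of 15 higher) and endoplasmic reticulum chaperones 0.00, -0.05 and -0.06 (7 of 15). Early differentiation had 0.07, 0.16 and 0.10, developmental timing -0.09, 0.03 and 0.12, G2 and M phase -0.02, 0.03 and 0.19 and Wnt targets -0.08, -0.07 and -0.01. Insulin, FoxO and mTOR signalling had 0.03, 0.00 and -0.02, amino acid transporters 0.03, 0.09 and 0.06 and cholesterol synthesis 0.01, 0.01 and -0.11. Several of these medians had another sign with the covariate than over all litters.

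The remaining marker lists also moved between the 3 fits. The loop and distal, podocyte, proximal tubule and ureteric lists are part of the marker score, which is highest in the 4 libraries. Smaller medians of these lists in the last 2 fits are therefore partly built in. Loop and distal tubule markers had medians of 1.70, 0.10 and -0.55 (12 of 12 higher over all litters), podocyte markers 1.56, 0.73 and 0.26 (11 of 12) and proximal tubule markers 0.94, 0.18 and -0.52 (14 of 15). Ureteric epithelium had 0.98, -0.16 and -0.61, with 12 of 12 higher over all litters and 5 of 12 without the 4 libraries. Erythroid markers had 0.52, -0.18 and -0.73, with 5 of 6 and then 1 of 6 higher, and stroma 0.61, 0.21 and 0.18 (9 of 11).

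Both treated arms were then set side by side for the genes above and below. They share the normal litters. K minus normal had a median log2 difference of 1.28 for the genes above and BHB minus normal 1.11, and for the genes below the medians were -0.32 and -0.27. The direct comparison of K with BHB called no gene (0%; edgeR, smallest adjusted p = 0.403), and at an unadjusted p under 0.05 it held 12 of the 183 above (6.56%) and 3 of the 147 below (2.04%), against 8.23% of all genes. A p that misses the threshold does not show that the arms acted alike. Igdcc3 had the smallest p of these, at 12.9 ± 2.45 CPM in K and 18.7 ± 3.58 in BHB (SD, n = 4 each; K minus BHB -0.54 ± 0.16, adjusted p = 0.530). Pmp22 was the next, at 5.65 ± 0.593 and 8.49 ± 2.21 CPM (-0.58 ± 0.19, adjusted p = 0.535). Cpt1a and Cyp4a10 were higher in K (0.75 ± 0.31 and 2.13 ± 0.76), and Lyz2, Il1b, Ctss, Plek and S100a9 were higher in BHB, where BHB 4 was the highest litter. For Api5 the difference between arms was 0.00 ± 0.064 and for Ublcp1 -0.01 ± 0.11.

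Some features that the rule did not use are given here without a test. Protein-coding genes were 90.7% of those above and 89.8% of those below, against 78.4% of the genes tested. Median GC content of the longest transcript was 51.3% and 48.4%, against 49.0%. Median length of all exons of a gene merged was 4486 and 4629 bases, against 3843. All chromosomes from 1 to 19 and X held some, at 1.21% to 2.65% of the genes tested on each. Of the 330 genes, 242 matched in RefSeq's promoters, and 20 of the 24. Ccm2l, Pnp2, Kcnn2 and Prob1 were not matched.

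Motifs were searched on both strands of those promoters, and the shorter ACGTG lies within CACGTG. The E box was in 11.5% of promoters of genes above, 8.90% of genes below, 9.55% of genes tested and 7.15% of all promoters. AGGTCA was in 16.0%, 6.85%, 12.6% and 16.3%. ACGTG, the core of the hypoxia response element, was in 21.8%, 25.3%, 24.5% and 19.6%, CCAAT in 34.0%, 41.1%, 37.5% and 37.4%, and TGACGTCA, the cyclic AMP response element, in 2.56%, 4.11%, 2.79% and 1.79%. The direct repeat of AGGTCA spaced by 1 base, which PPAR heterodimers bind, was in none of the members' promoters and in 13 of 32851 overall. These shares describe letters in a 300 base window and were not tested.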

How the data were processed

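RNA from GFP-positive cells was sequenced as total RNA (SMARTer stranded kit, single reads of 100 cycles), per the labels' protocols. The authors deposited raw counts per gene and a signal column of counts divided by 1 size factor per library, which was not tested. Cutadapt 2.10, TopHat2 2.1.1, HTSeq 2.01 and DESeq2 1.36.0 are named in the submitters' processing notes without roles. No source used here gives the genome build, annotation release or strand setting, so antisense overlaps cannot be told apart. Of 55414 entries, 6250 were blank and left out.

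In R 4.3.3, edgeR 4.0.16 (limma 3.58.1) filtered low counts (filterByExpr, 17697 genes left, with 99.7% of counts), scaled by TMM and fitted a robust quasi-likelihood model with 1 mean per arm over 12 libraries (9 residual degrees of freedom). The contrast was the mean of K and BHB minus normal, and p-values were adjusted by Benjamini-Hochberg over all genes at 0.05. CPM are scaled by TMM. Log2 differences carry their standard error. The marker score is the mean log2 CPM (prior count 2) of 73 genes in 6 lists. DESeq2 1.42.0 was an alternative. The script was tested on simulated data. Named were the 12 genes of smallest p in each direction among those without overlap, without predicted or Riken clone names, and up to 4 of smallest p per list. Any other gene in the text was picked with its values in view. Members and lists were chosen with earlier results of these data known. Whether molecular identifiers were used in the counting was not stated in the labels, and intervals cover counting error only. Deviations of libraries with the same number correlated over 0.1 in all 4 pairs of normal and K (r from 0.11 to 0.46), in 1 of 4 of normal and BHB (-0.26 to 0.10) and in 0 of 4 of K and BHB (-0.44 to -0.22). The numbers were therefore not taken to pair litters across the 3 arms of the comparison. A few genes are not reported here.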

Additional observations from a re-analysis of the deposited data

Results flagged for a closer look

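In 3 of 93 groups of 4 litters checked, 1 litter stood far from the other 3, where chance flags about 1 in 20 groups. Ccm2l was at 0.0943 CPM in normal 1 and 0 in the other normal litters, which is a single count. Abca9 was at 5.85 CPM in BHB 4, against 1.30 to 1.98 in the other BHB litters. Malat1 was at 18151.5 CPM in normal 3, against 15145 to 15653 in the other normal litters.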

How the results depend on the processing

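Of 22 alternatives, DESeq2 and the fit without a filter gave calls: 194 higher and 32 lower with DESeq2, and 2 higher and 2 lower without the filter (38549 genes). The other 20, among them each litter left out in turn (unadjusted p under 0.05 for 1532 to 4825 genes), called 0. The replicate numbers were not taken to pair litters across the 3 arms, although all 4 pairs of normal and K correlated over 0.1. With the replicate block 0 genes were called and 2675 had an unadjusted p under 0.05. Overlap depends on CPM and not on the model, so the block could not change the 183 and 147 genes without overlap. Without K 3, K 4, BHB 1 and BHB 2 the genes without overlap were 359 above and 282 below, also with 1 mean for the treated litters, an alternative chosen after seeing the data. Leaving out 1 litter gave 193 to 397 above and 157 to 344 below. The main fit called 0 genes, so no named gene could reverse as a called value. Uncalled differences did change sign, as for Six2 (-0.46, and 0.07 with the covariate). Low counts limit the genes above: 54 of 183 were under 1 CPM in normal litters.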
